A study of Mus musculus with 16 samples.

Results

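The suppressor of cytokine signaling (SOCS) family of the mouse was examined in RNA-sequencing data of cultured macrophages that had been raised from bone marrow (BMDMs). Its 8 members, Cish and Socs1 to Socs7, were found by matching the Ensembl identifiers of the count table to gene symbols. They are 8 of the 55487 genes in the table. All 8 passed the filter on low counts (more than 1 CPM, the gene's count scaled to a common sample total, in at least 2 samples), as did 12372 genes in all.

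All 16 samples were of BMDMs from wild-type (WT) Balb/c mice aged 8 weeks, serum-starved before treatment. Conditioned medium (CM) came from the mouse mammary tumor line 4T1. Ruxolitinib (Rux) is an inhibitor of JAK1 and JAK2, and IKK-16 blocks the IKK kinases upstream of NF-κB. The groups were DMEM, the medium without tumor factors (n = 2), DMEM + Rux (n = 3), CM (n = 3), CM + Rux (n = 3, labelled 4 h), CM + Rux with a label of 2 h (n = 2) and CM + Rux + IKK-16 (n = 3). Ruxolitinib was used at 0.5 μM and IKK-16 at 0.8 μM with CM, while the labels give no dose for ruxolitinib in DMEM. What the 2 h refers to is not explained in the labels. Nothing in the labels says whether replicates came from separate mice or cultures, so the p-values measure the spread between these samples, which may be technical. The gene counts of a sample summed to 18449388 at the lowest and 46215853 at the highest. Levels are given as CPM of the total scaled by relative log expression (RLE). A gene is called higher or lower where the adjusted p-value of edgeR's quasi-likelihood test was under 0.05 and the log2 fold change was beyond 0.5 in size.

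SOCS proteins are the classical negative feedback of the JAK-STAT pathway. A cytokine binds its receptor, the receptor-bound JAK kinases phosphorylate STAT transcription factors, and the STATs switch on, among other genes, SOCS genes whose proteins then dampen the signal. Every member has an SH2 domain, which binds phosphorylated tyrosines, and a SOCS box, which binds Elongins B and C and a cullin and so recruits a ubiquitin ligase. SOCS1 and SOCS3 also carry a kinase inhibitory region that blocks JAKs directly. CIS, the product of Cish, and SOCS2 act mainly on receptors that signal through STAT5, such as those of GM-CSF and growth hormone, and SOCS3 acts on receptors that use gp130 and on the G-CSF receptor. SOCS4 to SOCS7 are best known from growth factor and insulin receptor signaling.

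In the annotation of build GRCm38, Cish (ENSMUSG00000032578) lies at chr9:107296026-107302784 on the + strand, Socs1 (ENSMUSG00000038037) at chr16:10782240-10785536 on the - strand, Socs2 (ENSMUSG00000020027) at chr10:95385362-95417180 on the - strand and Socs3 (ENSMUSG00000053113) at chr11:117966079-117970047 on the - strand. Socs4 (ENSMUSG00000048379) lies at chr14:47276931-47296102, Socs5 (ENSMUSG00000037104) at chr17:87107679-87137839 and Socs7 (ENSMUSG00000038485) at chr11:97362435-97398542, all on the + strand, and Socs6 is ENSMUSG00000056153. Counts cover all exons of a gene, whose summed length ran from 2891 bases (Socs3) to 11349 bases (Socs6).

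STATs bind a motif called GAS, which was searched as TTCNNNGAA and reads the same on both strands. The core of the interferon response element (ISRE) was searched as GAAA repeated after a gap of 2 bases, on both strands, and the κB motif of NF-κB by its consensus, also on both strands. The windows searched were the RefSeq promoters of build GRCm38.p6, which run from 250 bases before a gene's start to 50 after it. These windows were at hand for 4 members, Cish, Socs1, Socs3 and Socs4. For Cish and Socs3 the RefSeq start lies inside the Ensembl gene span given above, and so does the whole window. Of all 32851 windows of 300 bases, 8.3% hold a GAS motif, 3.44% an ISRE core and 8.46% a κB motif.

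The Cish stretch is shown because it holds 2 GAS motifs 2 bases apart, a number that 0.46% of all windows hold or exceed. It lies at chr9:107296659-107296678 on the + strand, from the RefSeq start to position 20, with position 1 the first base of the transcript. Capitals mark the motifs.
Cish: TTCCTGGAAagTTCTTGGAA

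The 250 bases before the RefSeq start of Socs3 (chr11:117969367-117969616, - strand) are shown for their single GAS motif, at positions -154 to -146 and in capitals. Those of Socs1 (chr16:10785537-10785786, - strand) are shown for 2 ISRE cores that overlap each other, from -83 to -68 and in capitals, which 0.23% of windows match or exceed in number. Both are written 5′ to 3′ on the strand of the gene.
Socs3: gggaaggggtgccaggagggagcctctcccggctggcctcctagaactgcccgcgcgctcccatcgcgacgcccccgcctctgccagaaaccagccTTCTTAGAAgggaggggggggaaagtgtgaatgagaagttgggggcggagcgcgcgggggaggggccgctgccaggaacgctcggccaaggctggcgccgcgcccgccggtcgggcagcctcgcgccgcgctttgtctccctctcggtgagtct
Socs1: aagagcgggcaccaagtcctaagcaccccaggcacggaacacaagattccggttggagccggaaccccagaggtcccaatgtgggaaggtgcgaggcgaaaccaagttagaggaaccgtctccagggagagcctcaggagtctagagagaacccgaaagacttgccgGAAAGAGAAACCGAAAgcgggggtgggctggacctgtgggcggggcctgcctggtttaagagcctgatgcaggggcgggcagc
No κB motif of this consensus was found in these 4 windows, and the Socs4 window held none of the 3 motifs. These matches are descriptions of letters in a window and not of binding.

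The samples expressed macrophage genes throughout. All 8 macrophage markers were among the genes tested, with Lyz2 (lysozyme) at 28515 to 38000 CPM and Adgre1 (F4/80) at 1185 to 1800 CPM. Others of these markers differed more between groups. On average Cd14 was at 2111 CPM in DMEM and 13548 in CM, Itgam at 110 and 218, and Csf1r at 3557 and 2330. Mertk was at 25.4 CPM in DMEM and 5.18 in CM + Rux. The markers of 4T1 or other epithelial cells summed to at most 0.118 CPM in DMEM and 0.977 to 1.5 CPM in CM, those of neutrophils to at most 0.814 CPM in any sample and those of T and NK cells to at most 0.357 CPM. Krt5, Krt14 and Ly6g were at 0 counts in every sample. Fibroblast markers summed to 5.73 to 20.9 CPM, led by Col1a2, and their ranges in the groups overlapped. The dendritic cell markers summed to 8.58 to 12.7 CPM in CM + Rux 2 h and to at most 2.36 CPM elsewhere, nearly all of it Zbtb46. B cell markers, led by Cd79b, summed to 1.07 to 1.23 CPM without CM and to at most 0.747 CPM with CM. The part of these few reads in the results below was not tested. In bulk RNA, fewer cells of a type and less RNA per cell cannot be told apart.

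In plain DMEM the family was carried by Socs4 to Socs7. Per length, as CPM per kilobase of exon (FPKM), Socs4 stood at 7.15 ± 0.0408 (SD, n = 2), Socs5 at 5.95 ± 0.820, Socs7 at 5.89 ± 0.365 and Socs6 at 4.58 ± 1.70. Socs3 followed at 3.88 ± 2.95 FPKM, Socs1 at 0.314 ± 0.0133, Socs2 at 0.0253 ± 0.000676 and Cish at 0.0211 ± 0.00275. Socs5, Socs7, Socs6 and Socs3 did not differ beyond the spread between samples. Cish and Socs2 were close to the limit of detection, with 5 and 3 counts for Cish and 8 and 6 for Socs2.

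In CM the order changed and 1 gene made up nearly the whole family. Socs3 stood at 731 ± 145 FPKM (n = 3), between the 35th and 45th highest level among the 12372 genes tested in these 3 samples. Cish was next at 21.0 ± 1.93 FPKM, followed by Socs4 at 9.38 ± 0.261, Socs7 at 8.75 ± 0.341 and Socs1 at 6.28 ± 0.201. Socs5 at 5.69 ± 0.464 FPKM overlapped Socs1, while Socs6 at 3.16 ± 0.264 and Socs2 at 1.2 ± 0.302 were lowest. The summed level of the family was 27.8 ± 2.38 FPKM in DMEM and 787 ± 147 in CM. Socs3 held 13.6% ± 9.44 of that sum in DMEM and 92.8% ± 0.939 in CM. In DMEM + Rux the sum was 25.8 ± 1.22 FPKM, in CM + Rux 2 h 518 ± 100.2, in CM + Rux 537 ± 158 and in CM + Rux + IKK-16 306 ± 132. The share of Socs3 stayed between 88.3% and 92.8% on average in the 4 groups with CM.

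**Figure D1:**
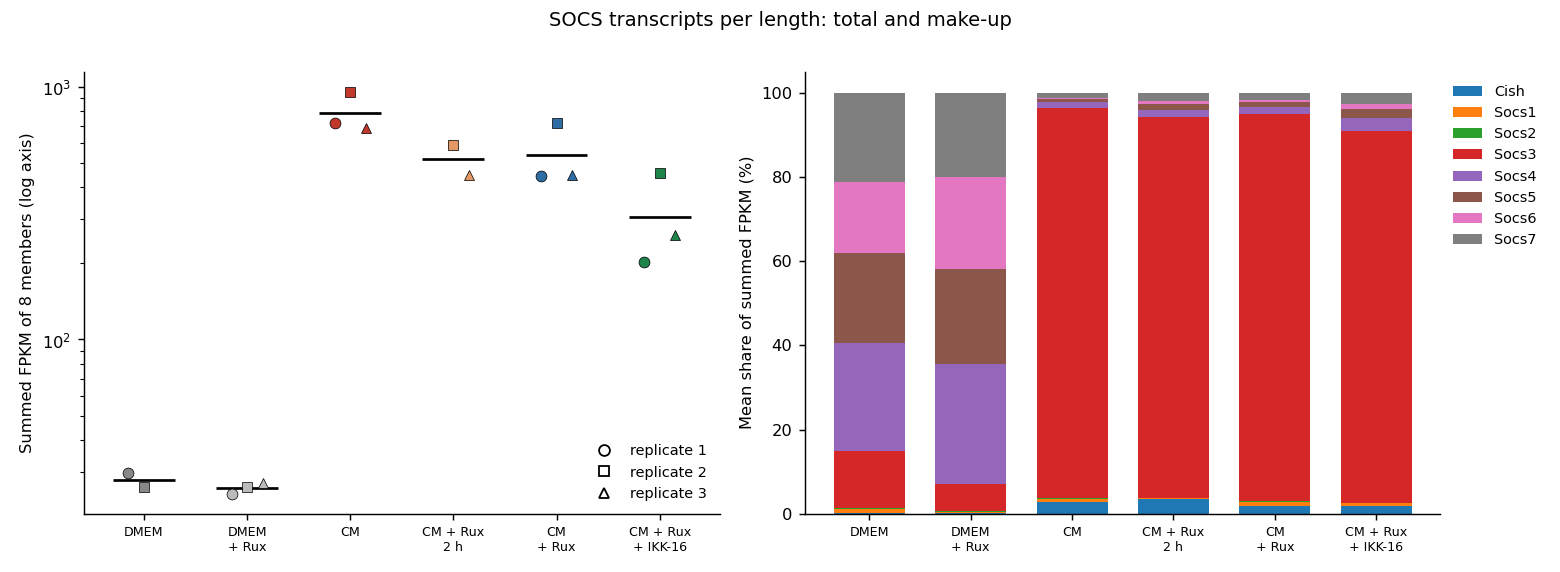
Summed level of the 8 members in FPKM on a log axis (left; points are samples, lines are group means) and the mean share of each member in that sum in percent (right; stacked bars) for the 6 groups. Socs4 to Socs7 fill most of the bars without CM, and Socs3 fills 88.3% to 92.8% of each bar with CM.

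The first comparison asked what the soluble factors of 4T1 cells change in macrophages. Cish, Socs1, Socs2 and Socs3 rose from low levels and Socs7 rose slightly. Socs6 was called lower, a call that 7 of 12 alternatives made, and Socs4 and Socs5 were not called. Thus 5 of 8 members were called higher and 1 lower, where 20.9% of all 12372 genes were called higher and 24.1% lower. The median log2 fold change was 2.45 over the members and -0.0050 over all genes tested. Cish and Socs2 were above 1 CPM in the 11 samples with CM and in no other, so their passing the filter already rests on the CM groups. RLE scaling moved every log2 fold change of this comparison by 0.31 compared with scaling by total counts, and changes are given relative to it. With the scaling by total counts, 1536 genes were called higher and 4605 lower in place of 2584 and 2980.

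Socs3, the brake on gp130 receptors, was at 17.2 and 5.19 CPM in the DMEM samples and at 1912, 2596 and 1835 CPM in CM. The DMEM samples differed from each other by a larger factor than the CM samples did, and the groups were far apart. Its log2 fold change was 7.54 (SE 0.595, adjusted p = 1.76e-07), and it ran from 6.94 to 8.67 when 1 sample was left out. Cish, which encodes CIS, had 0.148 and 0.123 CPM in DMEM and 135, 147 and 122 CPM in CM. This was the largest fitted change of the family, 9.90 on the log2 scale (SE 0.520, adjusted p = 4.99e-09). Its size rests on 8 fragments in DMEM in all, for which the exact Poisson interval (95%, counting error only) is 3.45 to 15.8. The genes Gm17040 and Gm17041 overlap Cish on the other strand. The authors counted by strand, and these genes had at most 5 counts in any sample.

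Socs1, the brake on interferon signaling, was at 0.886 and 0.940 CPM in DMEM and at 18.9, 18.2 and 17.7 CPM in CM. Of the 4 strongly raised members it had the tightest replicates in CM, and its log2 fold change was 4.32 (SE 0.179, adjusted p = 1.01e-09). Socs2, which restrains growth hormone signaling, was at 0.236 and 0.245 CPM in DMEM and at 9.56, 14.7 and 9.93 CPM in CM. All 3 CM samples were above both DMEM samples, with a log2 fold change of 5.55 (SE 0.659, adjusted p = 7.04e-06). These 4 members were called higher under all 12 alternatives tried, the other scalings included.

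The remaining members stayed within a narrow band. Socs7 was at 45.4 and 41.5 CPM in DMEM and at 65.4, 66.6 and 61.7 CPM in CM. These groups did not overlap, and the log2 fold change was 0.57 (SE 0.0692, adjusted p = 8.59e-06), which was 0.26 and under the fold threshold with scaling by total counts. Socs4 was also higher in every CM sample, at 62.4 to 65.6 CPM against 49.0 to 49.4 CPM, but its log2 fold change of 0.39 (SE 0.0771, adjusted p = 5.56e-04) lay under the fold threshold. Over the 12 alternatives, the other scalings included, that value ran from 0.081 to 0.42. Socs5 was at 34.4 to 41.9 CPM in DMEM and at 34.1 to 39.9 CPM in CM, with a log2 fold change of -0.066 (SE 0.0942, adjusted p = 0.558). Its range over the same alternatives was -0.38 to 0.082, and none of them called Socs4 or Socs5.

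Socs6 was at 38.3 and 65.6 CPM in DMEM and at 36.1, 38.7 and 32.8 CPM in CM. The DMEM samples lay far apart and the first of them fell within the CM range. The log2 fold change was -0.53 (SE 0.20, adjusted p = 0.0322), and it was -0.095 (adjusted p = 0.71) without DMEM replicate 2. The call was also lost without CM replicate 1 (adjusted p = 0.0608) or CM replicate 3 (0.0922), in a model of these groups alone (0.0598) and with the replicate number as a block, where the log2 fold change was -0.49.

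**Figure D2:**
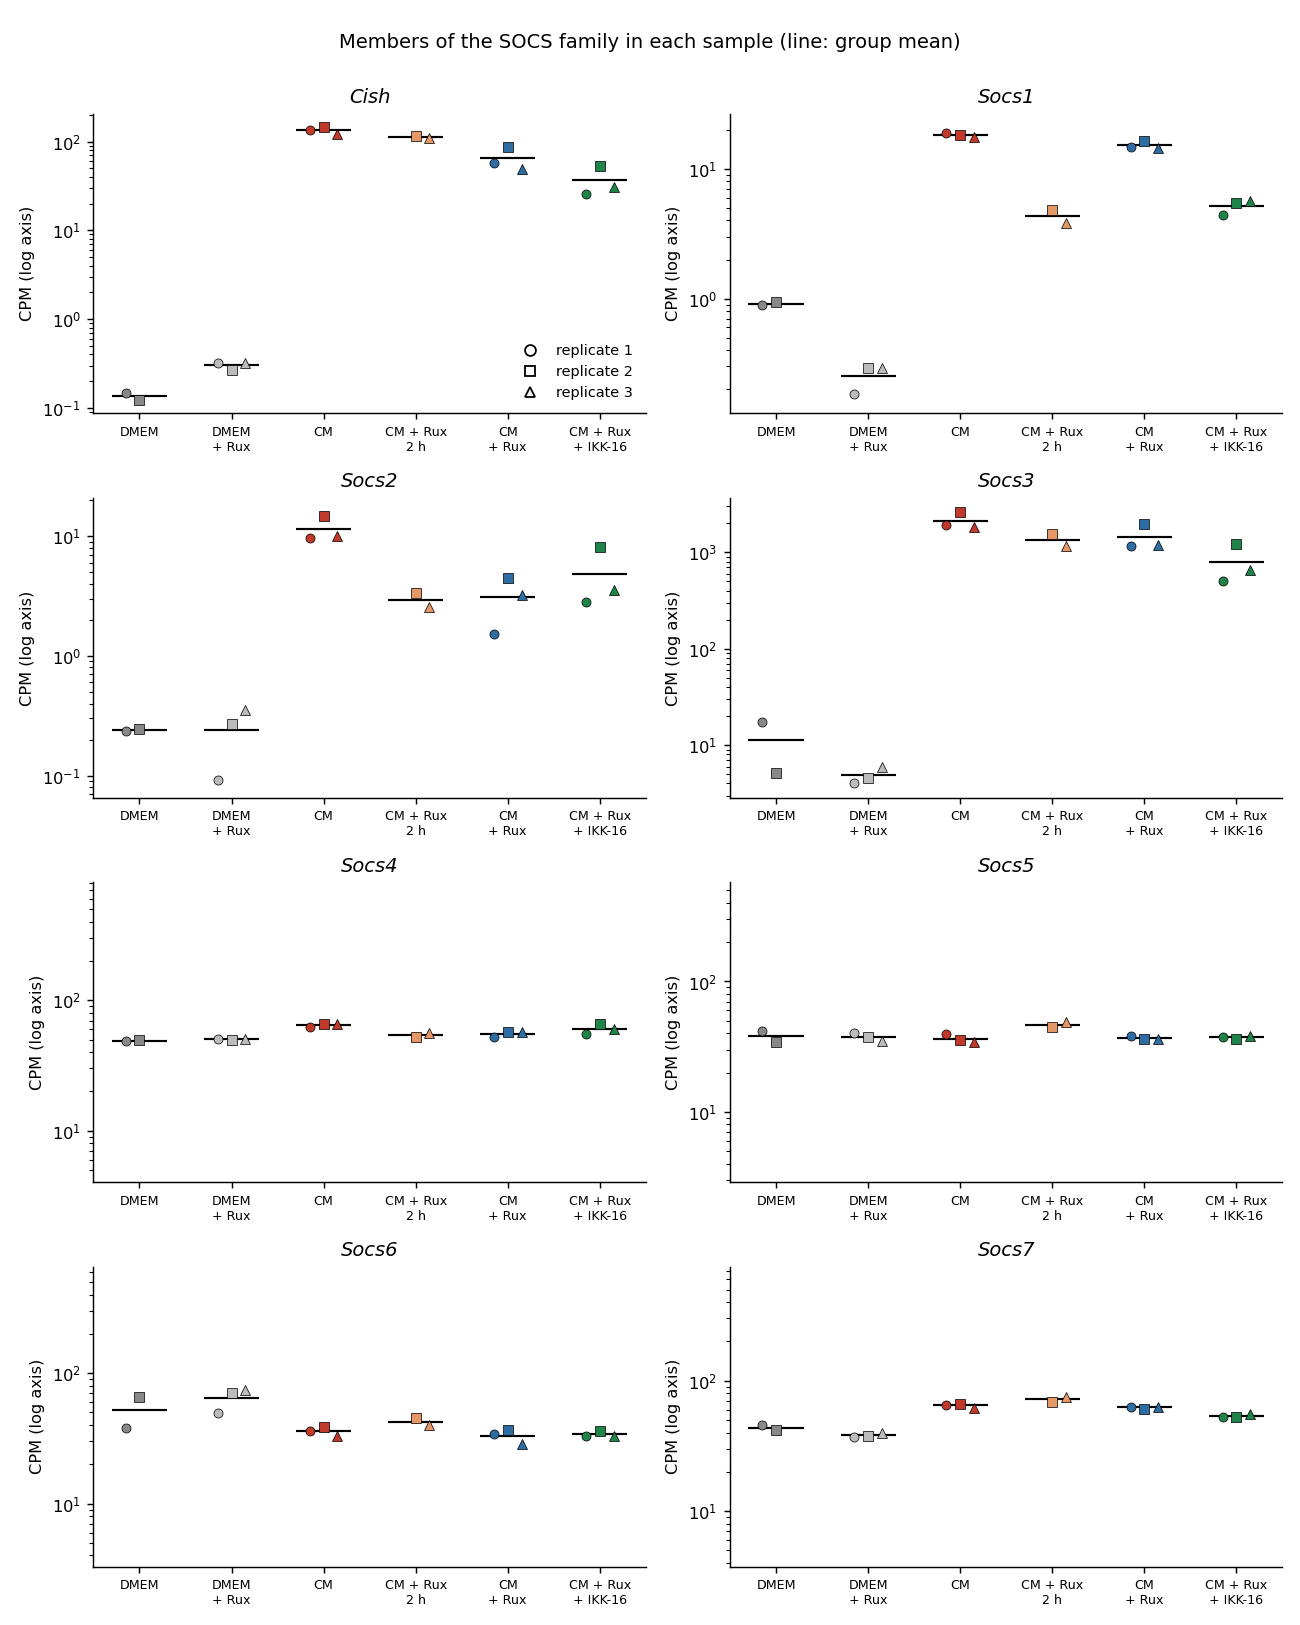
CPM of each member on a log axis in the 6 groups, with a panel per gene; points are samples with a symbol per replicate number and lines are group means. Cish and Socs1 to Socs3 lie far higher in every sample with CM than in any without, whereas Socs4 to Socs7 stay between 28.7 and 75.6 CPM in all samples.

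The second comparison asked how JAK1 and JAK2 inhibition changes the response to CM. Cish and Socs2 fell. Socs1 and Socs3 were not called, at means of 83.1% and 67.8% of their CM levels, and both were lower in CM + Rux within each of the 3 replicate numbers. By edgeR 2 of 8 members were called lower and 0 higher, also 0 by DESeq2 and 0 at an unadjusted p under 0.05, where 2.13% of all genes were called lower and 1.2% higher. With the replicate number as a block, 440 genes were called lower and 305 higher in place of 263 and 149.

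Cish was at 135, 147 and 122 CPM in CM and at 56.9, 87.9 and 49.1 CPM in CM + Rux. The groups did not overlap, and within each replicate number the CM + Rux sample was lower, by -1.25, -0.74 and -1.31 on the log2 scale. The fitted log2 fold change was -1.05 (SE 0.233, adjusted p = 0.0180). This call was lost without CM replicate 1 (adjusted p = 0.0521), CM replicate 2 (0.0728), CM + Rux replicate 1 (0.0982) or CM + Rux replicate 3 (0.0858).

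Socs2 was at 9.56, 14.7 and 9.93 CPM in CM and at 1.54, 4.48 and 3.20 CPM in CM + Rux. Its highest CM + Rux sample was below its lowest CM sample. Socs2 had a log2 fold change of -1.90 (SE 0.401, adjusted p = 0.0137), with a mean of 26.9% of the CM level. The call was lost without CM replicate 2 (adjusted p = 0.0701) or CM + Rux replicate 1 (0.0655).

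Socs3 was at 1912, 2596 and 1835 CPM in CM and at 1167, 1948 and 1187 CPM in CM + Rux. The groups overlapped through replicate 2, the highest sample of both, although the CM + Rux sample was lower within each number. The log2 fold change was -0.56, with an interval of -1.35 to 0.23 (95%, adjusted p = 0.556). Socs1 was at 18.9, 18.2 and 17.7 CPM in CM and at 14.6, 16.5 and 14.4 CPM in CM + Rux. These groups did not overlap, but the change was small, -0.26 on the log2 scale with an interval of -0.52 to -0.012 (adjusted p = 0.294). Socs4 did not overlap either, at 62.4 to 65.6 CPM in CM and 52.1 to 57.6 CPM in CM + Rux. Its change was also small and not called, -0.22 with an interval of -0.36 to -0.069 (adjusted p = 0.103). Socs5 to Socs7 overlapped, with log2 fold changes between -0.11 and 0.020 and adjusted p-values from 0.826 to 0.969.

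Against DMEM, Cish, Socs1, Socs2 and Socs3 were called higher also with JAK1 and JAK2 inhibited. In CM + Rux the log2 fold change over DMEM was 6.98 for Socs3 (adjusted p = 2.77e-07), 8.84 for Cish (1.45e-08), 4.06 for Socs1 (1.56e-09) and 3.66 for Socs2 (3.75e-04). That of Socs3 ran from 6.38 to 8.11 when 1 sample was left out. In all, 5 members were called higher and 1 lower, beside 20.4% and 23.2% of all genes. The other calls were Socs7, at 0.52 (adjusted p = 1.98e-05), and Socs6, at -0.64 (0.0126), while Socs4 and Socs5 were not called. Socs7 was at 0.23 with total counts and at 0.46 without DMEM replicate 2, both under the fold threshold, and Socs6 was at -0.20 (adjusted p = 0.404) without that sample. With total counts, 1551 genes were called higher and 4400 lower in place of 2519 and 2865. Cish and Socs2 passed the filter only through samples with CM, which bears on their calls here too. This comparison shares the DMEM samples with the first and the CM + Rux samples with the second.

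The third comparison asked what the IKK inhibitor changes when added to CM + Rux. Socs1 fell sharply and Cish fell further. By edgeR 2 members were called lower and 0 higher (0 by DESeq2 and 0 at an unadjusted p under 0.05), beside 3.66% and 4.07% of all genes.

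Socs1 was at 14.6, 16.5 and 14.4 CPM in CM + Rux and at 4.38, 5.41 and 5.68 CPM in CM + Rux + IKK-16. The groups were widely apart, and within the replicate numbers the log2 ratios were -1.74, -1.61 and -1.34. The fitted log2 fold change was -1.56 (SE 0.123, adjusted p = 9.53e-06). The call held under all 13 alternatives, with log2 fold changes from -1.64 to -1.45. The level with IKK-16 was still 28.2% of the CM mean, against 5.0% in DMEM.

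Cish was at 56.9, 87.9 and 49.1 CPM in CM + Rux and at 25.4, 53.5 and 30.5 CPM with IKK-16. The groups overlapped through replicate 2 of the IKK-16 samples, while each IKK-16 sample was below the CM + Rux sample of its number. The log2 fold change was -0.83 (SE 0.235, adjusted p = 0.0290). It was not called without CM + Rux replicate 2 (-0.55, adjusted p = 0.139), CM + Rux + IKK-16 replicate 1 (0.121) or replicate 3 (0.11), nor in a model of these groups alone (0.142).

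Socs3 was at 1167, 1948 and 1187 CPM in CM + Rux and at 501, 1212 and 658 CPM with IKK-16. Replicate 2 was again the highest of both groups and made them overlap, while each IKK-16 sample was lower within its number, by -1.22, -0.69 and -0.85 on the log2 scale. The log2 fold change was -0.86 (SE 0.369, adjusted p = 0.139). It was called lower without CM + Rux + IKK-16 replicate 2, at -1.31 (adjusted p = 0.0346), and with no filter on low counts (adjusted p = 0.00783).

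Socs2 was not called. It was at 1.54, 4.48 and 3.20 CPM in CM + Rux and at 2.81, 8.04 and 3.55 CPM with IKK-16. The groups overlapped, with a log2 fold change of 0.63 (interval -0.23 to 1.5, adjusted p = 0.328), which ran from 0.045 without CM + Rux + IKK-16 replicate 2 to 1.07 without CM + Rux replicate 2. With the replicate block it was 0.64 and called higher (adjusted p = 0.0442), which made 1 member higher. Socs7 was lower in every IKK-16 sample, at 52.2 to 55.4 CPM against 61.1 to 63.2 CPM, with a log2 fold change of -0.22 (adjusted p = 0.0244) under the fold threshold. Socs4, Socs5 and Socs6 differed by 0.016 to 0.12 on the log2 scale and were not called.

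**Figure D3:**
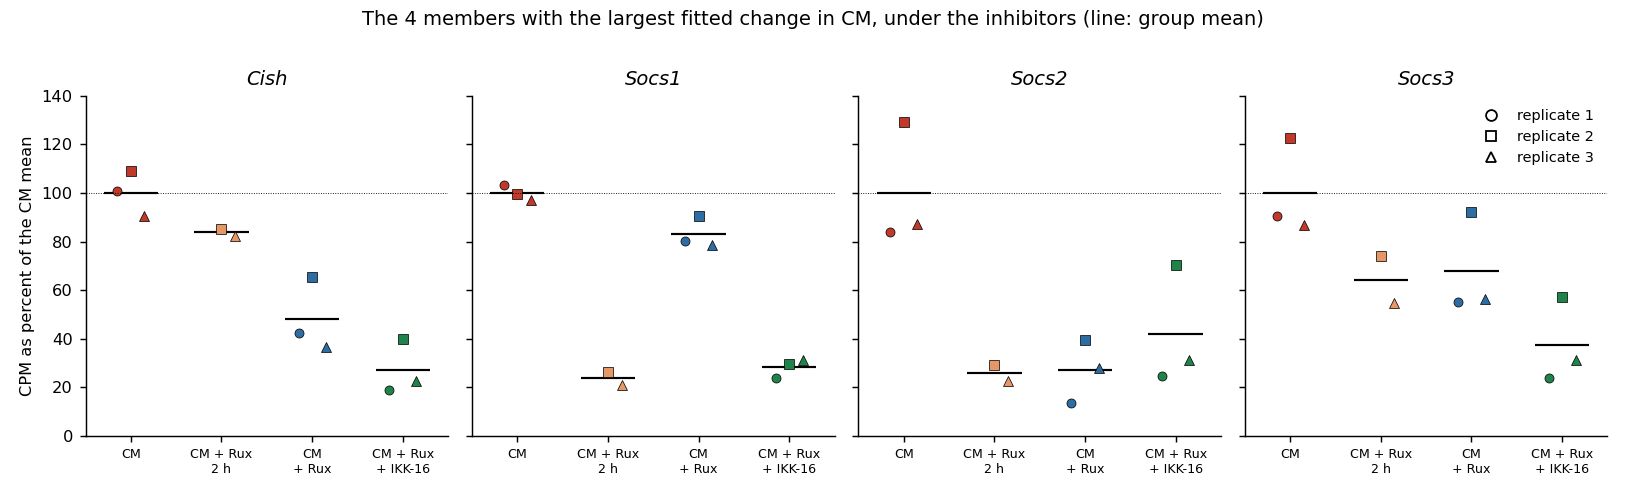
CPM of Cish, Socs1, Socs2 and Socs3 as a percent of the CM mean in the 4 groups with CM, on a linear axis; points are samples with a symbol per replicate number and lines are group means. Socs1 holds 83.1% of its CM mean in CM + Rux and 28.2% with IKK-16, Socs2 26.9% and 42.1%, Cish 48.0% and 27.1%, and Socs3 67.8% and 37.4%. Replicate 2 is the highest sample of Cish, Socs2 and Socs3 in each group.

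With ruxolitinib in DMEM, without tumor factors, Socs1 was the member called lower. By edgeR 1 member was called lower, beside 0.97% of all genes. No member was called higher (0 by DESeq2 and 0 at an unadjusted p under 0.05), and of all genes 0% were called higher, with 0 by DESeq2 and 181 at an unadjusted p under 0.05. Socs1 was at 0.886 and 0.940 CPM in DMEM, from 30 and 23 counts, and at 0.185, 0.290 and 0.291 CPM in DMEM + Rux, from 4, 13 and 9 counts. The groups did not overlap, with a log2 fold change of -1.76 (SE 0.244, adjusted p = 9.76e-04). A model of these groups alone gave -1.78 with an adjusted p of 0.151 and called no member.

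Socs3 was at 17.2 and 5.19 CPM in DMEM and at 4.01, 4.6 and 5.95 CPM in DMEM + Rux. Only the first DMEM sample stood above the others, and the log2 fold change of -1.22 was not called (adjusted p = 0.694), but it was with no filter on low counts (-1.23, adjusted p = 0.0117). Without DMEM replicate 1 it was -0.092. Cish had 5 and 3 counts in DMEM and 7, 12 and 10 in DMEM + Rux, and Socs2 had 8 and 6 against 2, 12 and 11. At this depth their log2 fold changes, 1.10 and 0.079, had intervals of -1.01 to 3.21 and -1.89 to 2.04. Socs7 was lower in every DMEM + Rux sample, at 36.9 to 39.4 CPM against 41.5 and 45.4, but was not called (-0.19, adjusted p = 0.594), and neither were Socs4 (0.035), Socs5 (-0.030) and Socs6 (0.32).

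The effect of ruxolitinib in CM was then compared with its effect in DMEM, as an interaction term in the same model. Socs1 was the member called, with 0.234% of all genes called higher and 0.178% lower. Those shares stand for 29 and 22 genes. Instead, 247 and 197 were called with the replicate block, 213 and 136 with no filter and 147 and 87 by DESeq2. The log2 fold change of Socs1 with ruxolitinib was -0.26 in CM and -1.76 in DMEM, a difference of 1.5 (SE 0.271, adjusted p = 0.0302). Over 18 alternatives the adjusted p was 0.00605 to 0.144. The difference kept its direction in all of them, but of the 11 models that left out 1 sample, 10 lost the call, and the one without CM + Rux replicate 2 kept it. By edgeR 0 members were called lower (0 by DESeq2), and 2 were lower at an unadjusted p under 0.05: Cish at -2.15 (adjusted p = 0.532) and Socs4 at -0.25 (0.448). The differences of the other members were -1.98 for Socs2, 0.66 for Socs3, 0.050 for Socs5, -0.43 for Socs6 and 0.14 for Socs7, none of them called.

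In the CM + Rux samples labelled 2 h, Cish was higher and Socs1 lower than in those labelled 4 h. Thus 1 of 8 members was called in each direction, a share near the background of 12.6% of all genes higher and 10.7% lower. Socs1 was at 4.83 and 3.79 CPM in the 2 h samples and at 14.6, 16.5 and 14.4 CPM in the 4 h samples. The groups were clearly apart, with a log2 fold change of -1.80 (SE 0.147, adjusted p = 1.23e-06), and it was called lower under all 12 alternatives.

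Cish was at 115 and 111 CPM in the 2 h samples and at 56.9, 87.9 and 49.1 CPM in the 4 h samples. The groups did not overlap, with a log2 fold change of 0.80 (SE 0.256, adjusted p = 0.0243). The call was lost without CM + Rux 2 h replicate 2 (adjusted p = 0.10) or replicate 3 (0.0822), and without CM + Rux replicate 1 (0.0767) or replicate 3 (0.0834). Socs3 was at 1563 and 1152 CPM in the 2 h samples, which overlapped the 4 h samples, and its log2 fold change was -0.079 (interval -0.96 to 0.80). Socs2 was at 3.34 and 2.57 CPM, within the range of the 4 h samples, at -0.037 (interval -1.05 to 0.97). Socs5 and Socs7 were slightly higher, by 0.34 (adjusted p = 0.0116) and 0.20 (0.0279) on the log2 scale, under the fold threshold. Socs6 was at 45.3 and 39.8 CPM, above all 4 h samples, but was not called (0.36, adjusted p = 0.179), and nor was Socs4 (-0.038).

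**Figure D4:**
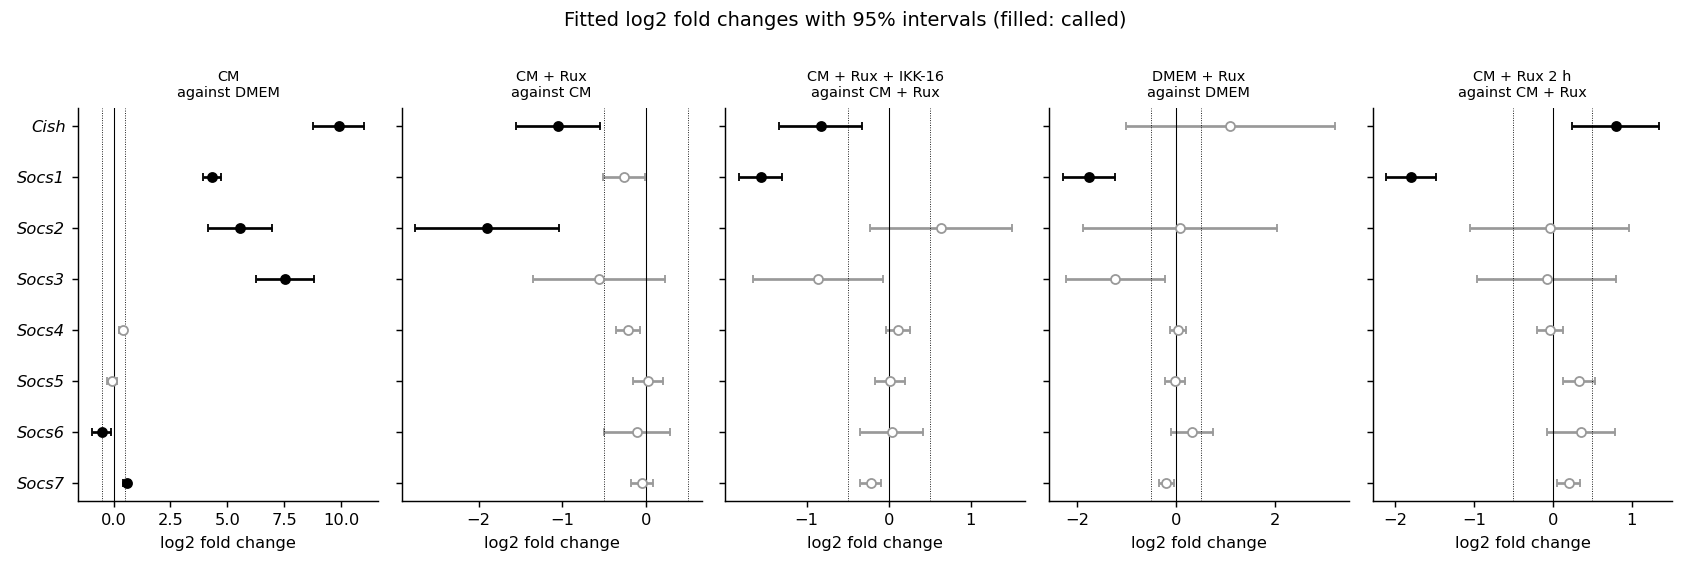
Fitted log2 fold changes of the 8 members in 5 comparisons, with bars for 95% intervals, filled points for called members and dotted lines at the fold threshold of 0.5; the horizontal scale differs between panels. Socs1 is at -0.26 with ruxolitinib in CM, -1.76 with ruxolitinib in DMEM and -1.56 with IKK-16, whereas Cish and Socs2 are called lower with ruxolitinib in CM.

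The order of the group levels, which was not tested as such, is given for the strongly raised members. Cish was highest in CM, followed by CM + Rux 2 h, CM + Rux and CM + Rux + IKK-16, of which the last pair overlapped, with DMEM + Rux and DMEM lowest. Socs1 ran from CM to CM + Rux, then CM + Rux + IKK-16 and CM + Rux 2 h, which overlapped, then DMEM and last DMEM + Rux. Socs2 was highest in CM, and its CM + Rux + IKK-16, CM + Rux and CM + Rux 2 h samples overlapped. Socs3 was highest on average in CM, and the other groups with CM overlapped each other in part.

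Across the 16 samples, log2(CPM + 0.5) of Cish and Socs3 had the closest likeness within the family (Pearson r = 0.986). Socs6 ran against Cish, Socs1 and Socs3, with r of -0.73, -0.79 and -0.80, and Socs5 had r between -0.24 and 0.34 with every other member. Outside the family, the genes with the most similar pattern were Adora2b for Cish (r = 0.995), Acvr1b for Socs1 (0.989), Rab44 for Socs2 (0.987) and Nlrp3 for Socs3 (0.998). For the other members they were Nudt3 for Socs4 (0.951), Cdc14a for Socs5 (0.906), Slc35f5 for Socs6 (0.941) and H2-Q7 for Socs7 (0.984). The genes were measured in the same libraries, and the samples fall into groups with and without CM. Such values describe mainly that difference and carry no p.

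The other genes of the JAK-STAT pathway were taken from fixed lists, and of each list the called genes with the largest change are named. Of 24 ligands of JAK-coupled receptors 13 were tested. Csf2, Csf3, Il6, Lif, Il10, Il12b, Il23a and Clcf1 were under 1 CPM in every sample without CM and passed the filter through samples with CM, so no share of calls is read from this list. The same held for Il2ra among the receptors and for Id1 and Il10, among others, in the STAT-driven list. Il6, which signals through gp130 and STAT3, was at 0 counts in both DMEM samples and at 219 ± 111 CPM in CM (n = 3). Csf3 (G-CSF) and Il23a were also at 0 counts in DMEM, and at 37.5 ± 23.1 and 10.8 ± 12.7 CPM in CM.

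Of 25 receptor chains tested, CM gave 12 calls of higher and 4 of lower, beside 20.9% and 24.1% of all genes, with a median log2 fold change of 0.35. The list holds Il2ra, which passed the filter through samples with CM, so no share of calls is read from it. Csf2rb, the shared signaling chain of the GM-CSF receptor, was at 307 ± 18.8 CPM in DMEM (n = 2) and at 2663 ± 259 in CM (n = 3), with a log2 fold change of 3.12 (adjusted p = 2.75e-09). Il4ra, a chain of the IL-4 receptor, rose by 4.39 (adjusted p = 1.55e-07), and Il2ra went from at most 3 counts to 10.5 ± 1.61 CPM. Lifr, the receptor of LIF, fell by 2.16 (adjusted p = 3.16e-07) and Il6st, which encodes gp130, by 1.10 (adjusted p = 3.92e-06).

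Of the 4 JAK kinases, Jak1, Jak2 and Jak3 were called higher in CM, beside 20.9% of all genes. With scaling by total counts 2 of the 4 were called higher. Jak2 went from 60.6 ± 15.5 to 731 ± 30.6 CPM (log2 fold change 3.59, adjusted p = 1.01e-09), while Jak1 rose by 0.69 and Jak3 by 1.24. Of the STATs, Stat3 rose by 2.32, Stat4 by 2.59 and Stat5a by 1.99 on the log2 scale.

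Of 15 other inhibitors of the pathway, 4 were higher and 4 lower in CM, shares near the 20.9% and 24.1% of all genes, and the median log2 fold change was -0.20. The phosphatases Ptpn1 and Ptpn2, which remove phosphate from JAKs and STATs, rose by 1.97 and 1.35 on the log2 scale. Usp18, which restrains the interferon receptor, fell by 1.02, the ubiquitin ligase Cblb by 1.08 and the phosphatase Dusp3 by 1.56. For Usp18 the groups overlapped, at 22.2 and 45.7 CPM in DMEM and 10.3 to 25.9 CPM in CM. Of 6 ligase subunits that SOCS boxes recruit, Elob (0.61), Eloc (0.77) and Cul2 (0.75) were called higher, and with scaling by total counts 0 of 6 were.

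Of 17 other proteins with a SOCS box, 5 were called higher and 3 lower, beside 20.9% and 24.1% of all genes, with a median of 0.10. Asb2 had at most 6 counts in CM and passed the filter through samples without CM, so no share of calls is read from this list. Spsb1 rose by 2.27 and Vhl, the substrate receptor for hypoxia-inducible factors, by 1.61, while Asb2, with that limit, fell by 4.95. Of 25 genes known to be driven by STATs, CM raised 15 and lowered 5, beside 20.9% and 24.1% of all genes, and their median was 1.54. The STAT-driven list holds Id1 and Il10, which passed the filter through samples with CM, so no share of calls is read from it either. Il1rn, the interleukin 1 receptor antagonist, was at 6.43 on the log2 scale, Ccnd1 at -3.22 and Mx1 at -1.75. With total counts no called gene of these lists changed sign, but 3 of the 15 inhibitors were then higher and 8 lower, and 10 of the receptors higher and 6 lower.

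With ruxolitinib in CM, 5 of 25 receptors and 4 of 25 STAT-driven genes were called lower, beside 2.13% of all genes. These 4 include Id1, which was at 1.75 to 2.73 CPM in CM and at most 0.911 CPM in every other group. It passed the filter through the group where it was high, so no share of calls is read from the STAT-driven list. The ligands called were Csf2, Lif and Csf1, all higher, at 3.76, 2.41 and 1.6 on the log2 scale. Csf2 was at most at 3 counts in CM and at 0.962 ± 0.238 CPM in CM + Rux. Among the receptors Il2ra fell by 1.58, Il6ra by 1.31 and Il4ra by 1.16. Stat2 fell by 0.85 and Jak3 by 0.71, while Usp18 fell by 3.25 and Ptpn1 by 0.64. Of the STAT-driven genes Irf9 was at -1.46 and Id1, with the limit given above, at -1.76, and Pim2 was called higher (0.76). In DMEM + Rux, Stat2 (-1.46), Usp18 (-2.89) and 5 of 25 STAT-driven genes were called lower beside Socs1, where 0.97% of all genes were. Among these 5 were the interferon-induced Cxcl10 (-5.81), Mx1 (-5.72) and Ifit1 (-5.55). The other 20 were not called, and again no share of calls is read from the list.

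When IKK-16 was added, the ligands with the largest falls were Csf2 (-3.39), Il23a (-3.20) and Il12b (-3.11), all among those that passed the filter through samples with CM. Jak2 was at 686 ± 47.0 CPM in CM + Rux and at 390 ± 26.2 with IKK-16 (n = 3 each), and the groups did not overlap. Its log2 fold change was -0.81, beside -1.31 for Stat5a and -0.69 for Stat3. Ptpn1 and Ptpn2 were at -0.56 and -0.50 and called lower, and Dusp3 was at 0.57 and called higher. Under TMM only 1 of the 15 inhibitors was called lower, and with total counts 0 were. In the 2 h samples Stat5a was higher than in the 4 h samples, by 1.22 on the log2 scale, and Stat5b by 0.53, while Stat3 was lower (-0.58). Also higher were Csf2 (2.59), Lif (1.38) and Il15ra (2.24), while Il6 was lower (-2.87).

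**Figure D5:**
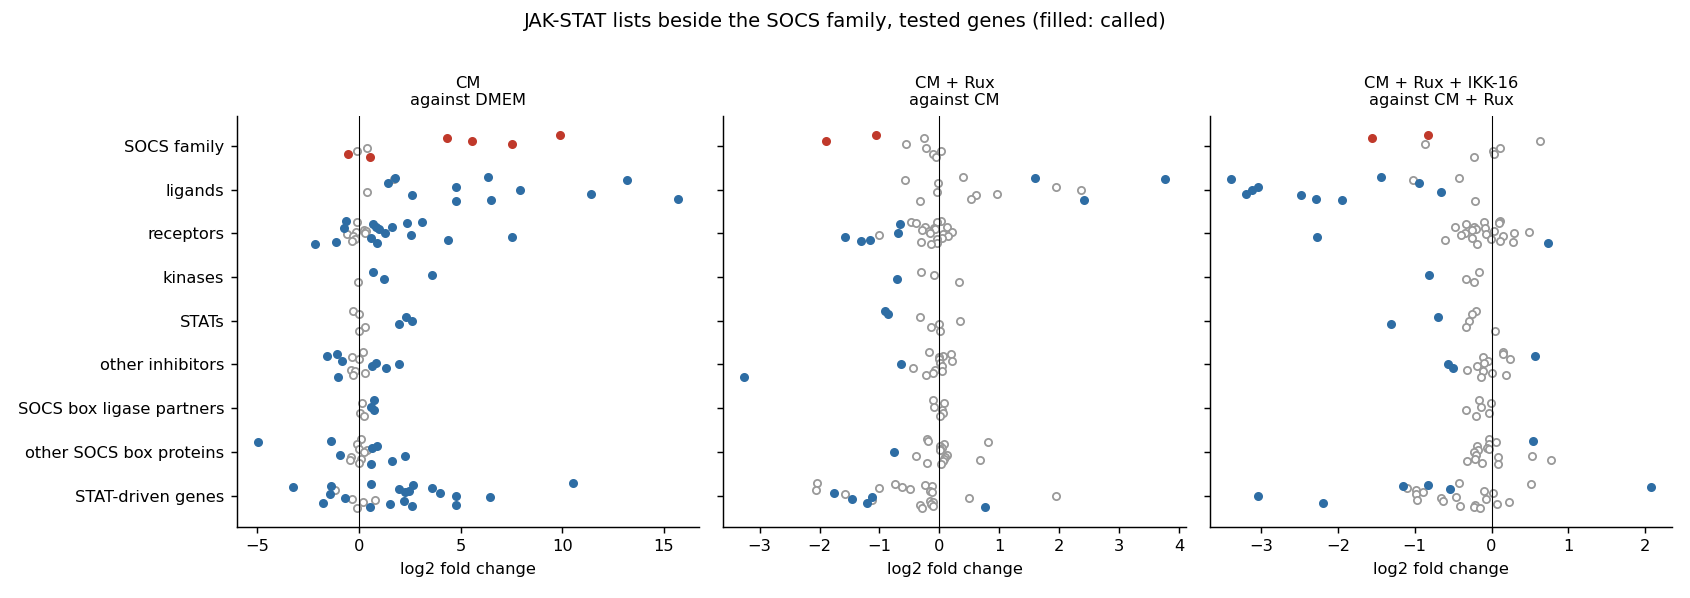
Log2 fold changes of all tested genes of the JAK-STAT lists and of the SOCS family in 3 comparisons; each point is a gene, filled where called, and the horizontal scale differs between panels. Jak2 is called at 3.59 in CM against DMEM and at -0.81 with IKK-16. The ligands far right in the left panel include genes at 0 counts in DMEM, whose fitted values are no measure of size.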

How the data were processed

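RNA of 16 BMDM samples in 6 groups was sequenced from stranded libraries. The authors trimmed reads with Trimmomatic 0.33, aligned them to GRCm38 with HISAT2 2.1.0 and counted fragments per gene with featureCounts 1.6.2 on Ensembl annotation, by strand and with multi-mapping fragments left out. The deposited values are raw counts per gene. Symbols were matched for 55141 of 55487 identifiers, and the 346 without one held at most 0.0459% of a sample's counts.

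The filter kept genes with more than 1 CPM in 2 or more samples. One edgeR 4.0.16 quasi-likelihood model with RLE factors (R 4.3.3) was fitted to all 6 groups and 7 comparisons were made. P-values were adjusted by Benjamini-Hochberg over all 12372 genes, and calls needed an adjusted p under 0.05 and a log2 fold change beyond 0.5. FPKM used exon lengths given in the table. Promoters were from RefSeq. The procedure was tested on simulated data.

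The members, lists and tests were chosen with earlier results of these data known. All members were named in every comparison, and from each list at most 3 called genes with the largest rise and 3 with the largest fall, not every one of which is printed, and any JAK or STAT. Some genes are not reported here. Likeness was the Pearson correlation of log2(CPM + 0.5).

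Alternatives were TMM, no filter, filterByExpr, DESeq2 1.42.0, only the groups compared, each sample left out, the replicate number as a block and, added after seeing the data, total counts. Where a sample left out leaves a lone sample, that one is assumed to vary like the other groups. Labels give replicate numbers. Deviations from group means correlated between same-numbered samples at 0.528, 0.717 and 0.569 for CM and CM + Rux, and at 0.586, 0.703 and 0.592 for CM + Rux and CM + Rux + IKK-16, so numbers were taken to pair samples there. No replicate pair agreed within sampling noise.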

Additional observations from a re-analysis of the deposited data

Results flagged for a closer look

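Socs1 was singled out because the effect of ruxolitinib on it differed between the 2 media by a test of the difference itself. The log2 fold change with ruxolitinib was -0.26 in CM and -1.76 in DMEM, a difference of 1.5 (interaction term of the edgeR model, adjusted p = 0.0302). The call was made under 8 of 18 alternatives (adjusted p from 0.00605 to 0.144) and was lost in 10 of the 11 models that left out 1 sample. The DMEM side rests on 4 to 30 counts per sample. In all 3 DMEM + Rux samples Socs1 was below both DMEM samples, and in all 3 CM + Rux samples it was below all 3 CM samples.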

How the results depend on the processing

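Of the members' log2 fold changes under the alternatives, 677 kept direction and side of the threshold, 34 lost a call, 4 gained one and 19 turned direction. The calls of Cish, Socs1, Socs2 and Socs3 in CM and in CM + Rux against DMEM, and of Socs1 with IKK-16 and at 2 h, held throughout. With no filter, CM + Rux against CM gave 269 genes higher and 416 lower, the comparison of ruxolitinib effects 213 and 136, and DMEM + Rux 2 members lower, Socs3 included (-1.23). Under total counts, 1536 genes were higher and 4605 lower in CM, 1551 and 4400 in CM + Rux against DMEM, and 49 and 41 in the comparison of ruxolitinib effects, and Socs4 in CM + Rux against DMEM turned to -0.11. DESeq2 gave 147 and 87 in the comparison of ruxolitinib effects. With only the groups compared, 0 members were lower in CM (Socs6 at -0.54, adjusted p = 0.0598), 1 with IKK-16 and 0 in DMEM + Rux. The cause was not tested.

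With the replicate block, CM + Rux against CM gave 305 genes higher and 440 lower, IKK-16 gave 1 member higher (Socs2, 0.64), DMEM + Rux 1 gene higher and Socs2 at -0.055, the comparison of ruxolitinib effects 247 and 197, and CM against DMEM 0 members lower, with Socs6 at -0.49. The block changed no other call of a member. DMEM had only 2 numbered pairs, which correlated at 0.363 and 0.365 with DMEM + Rux, so there the block rests on a shared number.

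Leaving out each sample in turn gave 0 to 1 members lower in CM and in CM + Rux against DMEM (4 to 5 higher in the latter), 0 to 2 lower in CM + Rux against CM, 1 to 3 lower with IKK-16, 0 to 1 higher at 2 h and 0 to 1 higher in the comparison of ruxolitinib effects. Genes ran from 82 to 164 higher and 161 to 322 lower in CM + Rux against CM, from 9 to 84 and 5 to 34 in the comparison of ruxolitinib effects, and from 0 to 5 higher in DMEM + Rux. None of the log2 fold changes that turned direction was called in the model of all samples. Those of Socs5 ran from -0.20 to 0.082 in CM, -0.025 to 0.086 in CM + Rux against CM, -0.18 to 0.10 in CM + Rux against DMEM, -0.16 to 0.12 in DMEM + Rux and -0.099 to 0.18 in the comparison of ruxolitinib effects. At 2 h Socs2 ran from -0.38 to 0.40, Socs3 from -0.32 to 0.20 and Socs4 from -0.091 to 0.0093. Socs6 ran from -0.060 to 0.11 with IKK-16 and from -0.021 to 0.76 in DMEM + Rux, Socs2 from -0.22 to 0.34 in DMEM + Rux, and Socs3 from -0.47 to 1.26 in the comparison of ruxolitinib effects. Cish and Socs2 had at most 12 counts in samples without CM, which limits what could be detected there.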
